A study of Mus musculus with 18 samples.

Results

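Collagen genes were taken by symbol from a table of 61224 ATAC-seq peaks on the mouse mm10 build. Every annotated symbol that reads Col, a number, the letter a and a second number was kept, which gave 30 of the 20326 genes with a peak and 124 peaks. Of 45 known mouse collagen symbols, 15 had no annotated peak, among them Col1a2, Col3a1, Col6a1 and Col6a3. Members were chosen by symbol alone, but the family itself was selected on its higher counts in the lymphomas than in NKT cells. Every count and fold change of the lymphomas below is therefore a description. The main counts are set beside the share of all peaks that passed the same threshold. No test over the family was made.

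ATAC-seq marks open chromatin by the cuts of the transposase Tn5, and 18 libraries of sorted cells were compared. The 9 mPTCL libraries were murine peripheral T-cell lymphomas that grew from p53-knockout T cells in C57BL/6 recipients lacking CD3, and their cells were sorted from the liver with no markers named. The wild-type groups were NKT cells (3 libraries, liver cells positive for CD3 and for the CD1d tetramer with alpha-galactosylceramide, titled Sp), T cells (3 libraries, spleen, CD3+ Thy1+) and NK cells (3 libraries, spleen, CD27- CD11b+). Genotype, disease and sort gate differed together in every comparison of the lymphomas, and the tissue also differed against T and NK cells, so these cannot be told apart. In bulk libraries a small number of open cells and a weak opening in many cells cannot be told apart either. Separate animals are not stated for the libraries of a group, and spreads and p-values cover these samples only and may be technical.

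Collagens are triple-helical proteins of the extracellular matrix. Fibrillar collagens bear tensile load, type IV collagen forms the sheet of basement membranes, FACIT collagens decorate fibrils, and transmembrane collagens sit in the plasma membrane. In the liver, stellate cells and fibroblasts are the main source of fibrillar collagen, whereas lymphocytes are not known as collagen producers.

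The promoters of 3 genes are shown because their peaks belong to the stronger 50% of all peaks and were higher in the lymphomas than in at least 2 of the normal groups. RefSeq GRCm38.p6 gives a promoter window, from 250 bases before the start to 50 after it, for 22 of the 30 genes, and 7 genes had a peak over one. Col23a1 and Col25a1 encode transmembrane collagens, and Col8a2 encodes a short-chain collagen of the cornea and vessel wall. The windows lie on the + strand at chr11:51289670-51289969 (Col23a1), chr3:130180595-130180894 (Col25a1) and chr4:126286544-126286843 (Col8a2), and capitals mark the GC box, GGGCGG on either strand.
Col23a1: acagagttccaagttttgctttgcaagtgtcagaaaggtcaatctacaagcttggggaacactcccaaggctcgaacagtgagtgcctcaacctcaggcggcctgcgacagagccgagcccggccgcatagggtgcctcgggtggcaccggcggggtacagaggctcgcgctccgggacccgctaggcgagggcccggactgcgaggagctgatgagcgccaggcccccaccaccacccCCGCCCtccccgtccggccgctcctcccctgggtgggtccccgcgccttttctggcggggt
Col25a1: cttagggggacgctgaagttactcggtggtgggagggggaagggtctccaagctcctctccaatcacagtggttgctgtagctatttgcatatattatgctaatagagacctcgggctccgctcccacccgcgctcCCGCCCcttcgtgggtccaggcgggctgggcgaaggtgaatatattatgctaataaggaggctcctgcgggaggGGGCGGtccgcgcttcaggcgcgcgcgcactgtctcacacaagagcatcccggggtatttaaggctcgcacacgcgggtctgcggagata
Col8a2: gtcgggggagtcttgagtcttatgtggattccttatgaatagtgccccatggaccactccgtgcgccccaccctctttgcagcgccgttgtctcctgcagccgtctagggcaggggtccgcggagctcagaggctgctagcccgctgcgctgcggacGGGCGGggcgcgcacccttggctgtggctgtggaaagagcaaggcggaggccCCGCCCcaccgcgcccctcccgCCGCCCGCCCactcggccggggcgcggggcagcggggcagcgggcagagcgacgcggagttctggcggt
All 3 windows are rich in CpG. The GC content is 67.7% in the Col23a1 window, 60.0% in the Col25a1 window and 71.7% in the Col8a2 window, against a median of 52.7% over all 32851 windows. The ratio of observed to expected CpG is 0.7 at Col23a1, 0.86 at Col25a1 and 0.832 at Col8a2, and 35.8% of all windows reach 0.6. A GC box occurs 1 time at Col23a1, 2 times at Col25a1 and 4 times at Col8a2, where a pair overlaps, and 35.7% of all windows hold at least 1. None of the 3 windows holds the letters TGTGGT (RUNX, in 16.8% of all windows), TGANTCA (AP-1, 7.81%), CTTTGA (TCF/LEF, 16.0%) or CCGGAA (ETS, 14.9%) on either strand, which says only that these letters are absent from these bases.

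Collagen peaks were weak and mostly intragenic. Of the 124 peaks, 97 lay in the weaker 50% of all peaks by mean level and 60 in the weakest 2 of 10 equal classes. By the deposited annotation 57.3% were intronic, against 31.7% of all peaks, 14.5% were exonic, against 6.58%, and 16.1% were at promoters, against 32.6%. A total of 113 lay inside the RefSeq gene, and 9 overlapped another RefSeq gene, whose signal cannot be separated. The median collagen peak held 18 counts per library in the lymphomas, 8 in NKT, 4 in T and 2 in NK cells, so values of single peaks in T and NK cells rest on few counts.

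Every lymphoma gave collagen peaks a larger share of its counts than 8 of the 9 normal libraries did. The share was 0.100% to 0.145% of counts in the lymphomas, 0.0340% to 0.0489% in NKT, 0.0525% to 0.0564% in T and 0.0671% to 0.101% in NK cells. NK 3 reached 0.101% (exact 95% interval 0.0930% to 0.109%, counting error only) and so overlapped the lowest lymphoma, mPTCL 1, at 0.100% (0.0959% to 0.105%). The weak peaks moved with it: the weakest 50% of all peaks took 19.5% to 28.3% of counts in the lymphomas, 8.65% to 11.4% in NKT, 14.7% to 15.7% in T and 17.7% to 21.9% in NK cells. Within those weak peaks alone, collagen peaks took 0.287% to 0.382% in the lymphomas, 0.142% to 0.191% in NKT, 0.166% to 0.194% in T and 0.211% to 0.328% in NK cells. The collagen peaks of the stronger 50% took 0.0355% to 0.0551% of all counts in the lymphomas, 0.0218% to 0.0271% in NKT, 0.0246% to 0.0294% in T and 0.0273% to 0.0348% in NK cells, and here the lymphomas did not overlap any normal group.

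**Figure D1:**
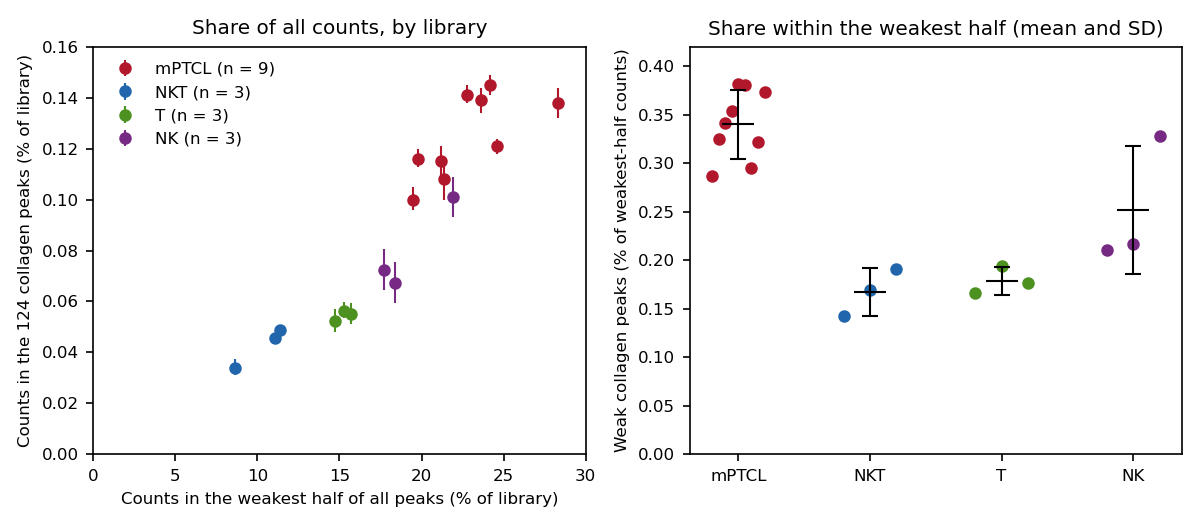
Left, percent of each library's counts in the 124 collagen peaks (exact 95% intervals, counting error only) against percent in the weakest 50% of all peaks; right, percent of the counts in those weak peaks that lies in collagen peaks, with mean and SD, for 9 mPTCL, 3 NKT, 3 T and 3 NK libraries. Both axes on the left are high in the lymphomas, NK 3 (0.101%) lies beside them, and on the right the lymphomas lie between 0.287% and 0.382%.

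Total counts were 670358 to 4844441 in the lymphomas, 1433904 to 9097014 in NKT, 979441 to 2358023 in T and 417107 to 596601 in NK cells. Promoter peaks took 48.7% to 59.1% of counts in the lymphomas, 59.9% to 64.0% in NKT, 62.5% to 63.5% in T and 55.3% to 60.4% in NK cells. Values below are CPM, counts relative to the library total after TMM scaling, and 1 count is worth 0.185 to 1.39 CPM in the lymphomas and 1.59 to 2.11 CPM in NK cells. A peak or gene is called when its edgeR quasi-likelihood test, adjusted by Benjamini-Hochberg over all peaks or genes, gives a p below 0.05. Fold changes are log2 values, lymphomas minus the normal group, with their standard error (SE).

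Against NKT cells, 70 of the 124 collagen peaks were called higher in the lymphomas, where 23.2% of all 61220 tested peaks were, and 3 were called lower, where 19.4% were. Against T cells, 21 were higher (8.27% of all peaks) and 0 lower (11.4%). Against NK cells, 11 were higher (6.03%) and 0 lower (3.76%). With the 9 normal libraries alone, 31 of the 124 collagen peaks and 38218 of all peaks passed the filter on low counts. Most collagen peaks were thus kept only with the lymphomas included, and the shares of all peaks are not matched for this. The median log2 difference of the collagen peaks was 1.89 against NKT, 1.18 against T and 0.70 against NK cells, and over all peaks it was 0.27, 0.26 and 0.30. Summed over the peaks of a gene, 25 of 30 collagen genes were higher than in NKT cells (25.5% of all genes) and 0 lower (20.2%). The gene counts were 17 higher (16.2%) and 0 lower (14.7%) against T cells, and 5 higher (11.2%) and 0 lower (10.3%) against NK cells. These 3 comparisons share the lymphoma libraries. Without NKT 2 the count of higher peaks against NKT cells was 41. Against T cells it was 7 without T 1 and 9 without T 3, and against NK cells it was 4 without NK 2. The shares of all peaks called in these fits are not given, so a general loss of calls cannot be told from a change in collagen peaks.

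No collagen peak was called higher against all 3 normal groups. A total of 24 were higher against 2 groups, 54 against 1 and 46 against 0. The matching shares of all peaks are not given, so these counts cannot be read as particular to collagen peaks. In 5 peaks all 9 lymphomas stood above all 9 normal libraries, as in 0.956% of all peaks, and in 40 peaks at least 5 lymphomas did, as in 12.2% of all peaks. In 33 peaks no lymphoma exceeded the highest normal library. The SD of log2 CPM over the 9 lymphomas had a median of 0.712 over collagen peaks and 0.664 over all peaks; levels were not matched.

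Among fibrillar collagens, the rod-like collagens of scar and cartilage, 8 of 11 genes had a peak and 7 were higher than in NKT, 6 than in T and 1 than in NK cells. Col1a1, a chain of type I collagen, had 39.9 to 80.2 CPM in the lymphomas (median 67.5) over its 5 peaks on chromosome 11. The normal values were 14.5 to 20.6 CPM in NKT, 28.9 to 31.2 in T and 18.5 to 53.8 in NK cells, so 7 of 9 lymphomas lay above every normal library. Its log2 difference was 1.81 ± 0.26 (SE) from NKT, 1.07 ± 0.26 from T and 0.95 ± 0.29 from NK cells, all called. The call against NK cells was lost without NK 1 (0.67) and without NK 2 (0.77). With scaling within each chromosome the differences were 0.57 from T and 0.36 from NK cells, neither called. In the smaller peak table (0.71 from T and 1.24 from NK cells) neither was called either. Its partner chain Col1a2 and the scar collagen Col3a1 had no annotated peak.

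Col5a1, a chain of type V collagen that helps start fibrils, had 12.0 to 31.2 CPM in the lymphomas. It had 2.56 to 3.52 CPM in NKT, 5.42 to 7.95 in T and 0 to 12.6 in NK cells, and 7 of 9 lymphomas exceeded all of these. On the log2 scale Col5a1 differed by 2.63 ± 0.48 from NKT and 1.52 ± 0.47 from T cells, both called, and 1.17 ± 0.53 from NK cells, not called. The call against T cells was lost without T 1 (1.40) or T 3 (1.52) and with promoter peaks alone (1.51). The Col5a1 promoter peak at chr2:27885836-27886336 had 1.87 to 14.0 CPM in the lymphomas, 0.606 to 2.4 in NKT and 2.13 to 4.67 in T cells, and 0 counts in all 3 NK libraries. It was therefore at least 3.88-fold higher in the lymphomas than in NK cells, with 0 taken as 3 counts over the group. That call was lost without NK 2 or NK 3. Col5a3, a type V chain, was not called as a gene, but its flanking peak at chr9:20765004-20765504 went the other way, with a log2 difference from NKT cells of -1.3 ± 0.43, called lower. The lymphomas had 2.65 to 19.5 CPM there (median 7.47) and NKT cells 17.6, 21.8 and 20.8 CPM, and the groups overlapped in mPTCL 8. That call was lost without any 1 NKT library or without mPTCL 7 (-1.05), and also with RLE scaling, library totals, scaling within each chromosome, a mean count of at least 20 and DESeq2 (-0.77 to -0.93). Col11a2, a cartilage collagen, had a flanking peak at chr17:34068919-34069419 with 2.65 to 13.1 CPM in the lymphomas and 2 counts in all NKT cells, a ratio of 49.0 (95% interval 13.3 to 408, counting error only). NK 1 and NK 3 had 8.29 and 12.7 CPM at that peak, within the range of the lymphomas.

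Of the basement membrane collagens, 3 of 6 genes had a peak, and 2 were higher than in NKT, 2 than in T and 0 than in NK cells. Col4a1 and Col4a2 encode the paired chains of ordinary type IV collagen. Col4a1 had 4.61 to 57.2 CPM in the lymphomas (median 16.3), 3.96 to 9.43 in NKT, 9.04 to 12.8 in T and 17.2 to 64.8 in NK cells. Of the 9 lymphomas, 5 lay below the lowest NK library and the other 4 within the range of NK cells. The log2 difference was 1.59 ± 0.56 from NKT (called), 1.03 ± 0.57 from T and -0.69 ± 0.54 from NK cells (not called). The call was lost without mPTCL 5 (1.22), NKT 1 (1.38) or NKT 2 (1.63), and without NK 3 the difference from NK cells was 0.10. Col4a2 had 8.15 to 38.1 CPM in the lymphomas, 11.0 to 16.5 in NKT, 3.62 to 12.0 in T and 10.3 to 30.2 in NK cells. Its log2 difference was 0.48 ± 0.40 from NKT, 1.21 ± 0.45 from T (called) and 0.08 ± 0.46 from NK cells. That call was lost without mPTCL 4 (1.15), mPTCL 5 (0.98), mPTCL 7 (1.12), T 1 (1.25) or T 2 (0.87).

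Short-chain network collagens had peaks at 2 of 3 genes, both higher than in NKT cells. Col8a2 carried 12 peaks within 23.8 kb and had 71.6 to 175 CPM in the lymphomas (median 119), 44.9 to 68.3 in NKT, 35.3 to 39.0 in T and 59.5 to 131 in NK cells. All lymphomas were above all NKT and T libraries, and 3 were above NK 3 as well. On the log2 scale Col8a2 differed by 1.0 ± 0.26 from NKT and 1.69 ± 0.28 from T cells, both called, and 0.49 ± 0.28 from NK cells, not called. Single peaks did not follow a common size. Only 2 of 12 were called against NKT cells, with fold changes of all 12 between -0.63 and 2.92, whereas 5 were called against T cells. An intronic peak at chr4:126303063-126303563 had 0 counts in T cells and 0.531 to 8.95 CPM in the lymphomas, at least 5.21-fold higher, a call lost without any 1 T library.

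Type VI collagens form beaded filaments and were listed with other genes, among them Col26a1. In this list 4 of 8 genes had a peak. Of these, 3 were higher than in NKT, 1 than in T and 1 than in NK cells. Col26a1, a collagen known from testis and ovary, was higher against every group. It had 57.5 to 113 CPM in the lymphomas (median 72.5), 5.28 to 16.7 in NKT, 26.2 to 45.1 in T and 8.2 to 25.3 in NK cells, and all 9 lymphomas were above all 9 normal libraries. Its log2 difference was 2.62 ± 0.31 from NKT, 1.13 ± 0.29 from T and 2.25 ± 0.37 from NK cells. All 8 peaks were called higher than in NKT cells, with fold changes between 1.64 and 3.64, and the median difference of the neighbouring peaks outside the gene was 1.59. Against NK cells, which had 0 counts at both, the promoter peak at chr5:136755548-136756048 was at least 4.77-fold and the intronic peak at chr5:136759937-136760437 at least 5.02-fold higher. The call against T cells did not hold in the smaller peak table (0.77) or with promoter peaks alone (1.55). Col6a2, a type VI chain, had 5.44 to 33.5 CPM in the lymphomas, 1.32 to 3.37 in NKT, 7.23 to 8.14 in T and 0 to 12.9 in NK cells. Its log2 difference was 2.27 ± 0.60 from NKT (called), 0.82 ± 0.57 from T and 1.55 ± 0.75 from NK cells (not called).

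FACIT collagens bind to the surface of fibrils, and 7 of 10 genes had a peak. Of these, 6 were higher than in NKT, 3 than in T and 2 than in NK cells. Col14a1, which regulates fibril diameter, carried 11 peaks over 215 kb of chromosome 15 and had 54.3 to 141 CPM in the lymphomas (median 65.3). It had 9.24 to 18.1 CPM in NKT, 24.8 to 45.6 in T and 28.7 to 52.2 in NK cells, and all 9 lymphomas were above all 9 normal libraries. On the log2 scale Col14a1 differed by 2.28 ± 0.32 from NKT, 1.15 ± 0.31 from T and 1.02 ± 0.34 from NK cells, all called. Scaling within each chromosome lowered the differences from T and NK cells to 0.29 each, not called. The call against T cells was also lost without T 3 (0.93), and the call against NK cells without NK 1 (0.86) or NK 2 (0.89) and with promoter peaks alone (1.31). The 3' UTR peak at chr15:55519975-55520475 had 2.92 to 16.7 CPM in the lymphomas against 3 counts in NKT cells, a ratio of 34.3 (11.5 to 168), and 0 counts in NK cells, at least 3.59-fold. The call against NK cells was lost without NK 2 or NK 3.

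Col22a1, a FACIT collagen of tissue junctions, differed widely between lymphomas and is described as a gene because of these values. At the peak annotated as its promoter, chr15:72034009-72034509, lymphomas 1 to 9 had 3.92, 15.3, 0.531, 3.5, 42.1, 28.4, 5.0, 33.5 and 83.1 CPM. NKT cells had 0, 1.06 and 1.1 CPM, T cells 0 counts, and NK cells 6.22, 0 and 6.35 CPM. mPTCL 9, 5, 8, 6 and 2 were above every normal library, and mPTCL 3 was below NKT 2, NKT 3, NK 1 and NK 3. The log2 difference was 4.56 ± 1.03 from NKT cells, and the lymphomas were at least 25.8-fold higher than T cells. The peak lay inside the RefSeq gene. Summed over 5 peaks, all higher than in NKT cells, Col22a1 had 6.55 to 153 CPM in the lymphomas (median 72.3), 1.32 to 6.74 in NKT, 2.89 to 17.2 in T and 8.62 to 26.7 in NK cells. The exonic peak at chr15:71944371-71944871 had 0.49 to 16.6 CPM in the lymphomas and 1 count in NKT cells, a ratio of 79.4 (14.0 to 3160). It had 2 counts in T cells, a ratio of 11.1 (3.01 to 92.5), and that call was lost without any 1 T library, without mPTCL 2, without mPTCL 5 or with scaling within each chromosome (2.76). The intronic peak at chr15:71979754-71980254 was at least 6.44-fold higher than in T cells, a call lost without any 1 T library. The intronic peak at chr15:71917706-71918206 had 3.45 to 66.2 CPM in the lymphomas and 0 counts in NK cells, at least 12.4-fold higher. The neighbours of Col22a1 outside the gene were raised as well, with a median log2 difference of 3.34 from NKT cells, and the neighbours of Col14a1 on the same chromosome with 2.47. Over all peaks of chromosome 15 the median was 1.59.

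All 4 transmembrane collagens had peaks, and 4 were higher than in NKT, 3 than in T and 1 than in NK cells. Col23a1 carried 14 peaks over 294 kb of chromosome 11 and had 114 to 259 CPM in the lymphomas (median 143). It had 47.5 to 57.9 CPM in NKT, 44.8 to 68.8 in T and 68.9 to 115 in NK cells, so 8 of 9 lymphomas were above every normal library. On the log2 scale Col23a1 differed by 1.58 ± 0.24 from NKT, 1.46 ± 0.25 from T and 0.91 ± 0.25 from NK cells, all called. The last call was lost without NK 1 (0.79) or NK 2 (0.78) and with scaling within each chromosome (0.32). In the smaller peak table the difference from NKT cells was 0.57, not called. Within the gene, 11 of 14 peaks were higher than in NKT cells and 1 was lower. The median log2 difference of its neighbours was 0.22.

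Col23a1 showed gains and losses side by side. At its promoter peak, chr11:51289775-51290275, which overlaps the CpG-rich window printed above, lymphomas 1 to 9 had 19.1, 29.3, 34.7, 40.5, 26.4, 20.7, 20.6, 39.0 and 35.5 CPM. NKT cells had 2.4, 1.36 and 2.33 CPM, T cells 7.46, 0 and 5.61 CPM, and NK cells 8.29, 4.22 and 15.9 CPM. Every lymphoma was above every normal library. The log2 difference was 3.88 ± 0.54 from NKT and 2.72 ± 0.53 from T cells, both called, and 1.57 ± 0.53 from NK cells, not called. An intronic peak at chr11:51527212-51527712 had 2.79 to 22.8 CPM in the lymphomas and 2 counts in NKT cells, a ratio of 81.8 (22.4 to 679). The adjacent intronic peak at chr11:51526442-51526942 had 3.93 to 17.9 CPM in the lymphomas, 0, 0 and 0.548 CPM in NKT cells and 0 counts in T cells. It was higher than in NKT cells by 5.07 ± 0.97 on the log2 scale, and at least 12.3-fold higher than in T cells. The strongest peak of the gene, at chr11:51539459-51539959, had 26.8 to 80.9 CPM in the lymphomas, 26.4 to 38.0 in NKT, 17.3 to 37.4 in T and 0 to 20.7 in NK cells. It differed by 0.45 from NKT cells, not called, and by 1.99 ± 0.48 from NK cells, called. The intronic peak at chr11:51577604-51578104 went the other way, with 3.74 to 16.4 CPM in the lymphomas and 24.0, 22.7 and 22.3 CPM in NKT cells (log2 -1.46 ± 0.41). No lymphoma reached the lowest NKT value there.

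Col25a1, a transmembrane collagen of neurons and developing muscle innervation, is described as a gene because of its values. All 5 peaks were higher than in NKT cells, and together they had 29.4 to 82.5 CPM in the lymphomas (median 52.4), 2.64 to 4.66 in NKT, 6.77 to 19.5 in T and 21.5 to 52.2 in NK cells. At the promoter peak, chr3:130180412-130180912, which covers the whole printed window, lymphomas 1 to 9 had 25.5, 26.2, 11.1, 12.9, 22.9, 22.5, 7.6, 33.5 and 47.6 CPM. NKT cells had 3.2, 1.06 and 0.959 CPM, T cells 9.59, 6.92 and 2.8 CPM, and NK cells 0, 12.6 and 15.9 CPM. All lymphomas were above NKT cells, and 6 of 9 were above every normal library. The log2 difference was 4.02 ± 0.68 from NKT and 1.9 ± 0.6 from T cells, both called, and 1.2 from NK cells, not called. The call against T cells was lost without T 2 (2.11) or T 3 (1.44). The intronic peak at chr3:130218027-130218527 had 1.59 to 11.2 CPM in the lymphomas and 2 counts in NKT cells, a ratio of 42.4 (11.5 to 353). The neighbours of Col25a1 had a median log2 difference of 0.29 from NKT cells, unlike those of Col22a1.

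Multiplexins are the basement membrane collagens that release endostatin-like fragments. Both genes had a peak, and Col18a1 was called higher than in NKT and T cells while Col15a1 was not called against any group. Col15a1 carried 13 peaks on chromosome 4 and had 50.3 to 207 CPM in the lymphomas (median 147), 86.4 to 126 in NKT, 75.9 to 104 in T and 68.9 to 115 in NK cells. The lymphomas lay on both sides of the normal libraries, 5 above all of them. Over the gene the log2 difference was 0.30 ± 0.27 from NKT, 0.62 ± 0.28 from T and 0.58 ± 0.30 from NK cells, none called. Of its peaks 1 was higher than in NKT cells and 1 lower, with fold changes between -1.27 and 2.04. The lower one, exonic at chr4:47310062-47310562, had 0 to 16.5 CPM in the lymphomas (median 6.37) and 14.4, 24.7 and 23.0 CPM in NKT cells (log2 -1.27 ± 0.48), and only mPTCL 7 exceeded the lowest NKT library. That call was lost when any 1 of 12 of the 18 libraries was left out, and with RLE scaling, library totals, a mean count of at least 20 or DESeq2 (-0.81 to -0.89). Col18a1 had 15.5 to 40.6 CPM in the lymphomas, 10.6 to 13.4 in NKT, 15.4 to 19.2 in T and 16.4 to 31.6 in NK cells. Its log2 difference was 1.22 ± 0.29 from NKT and 0.77 ± 0.30 from T cells, both called, and 0.24 ± 0.32 from NK cells, not called. The call against T cells was lost without any 1 T library (0.70 to 0.87), and without any 1 of mPTCL 1 to 7, NKT 2 or NKT 3. In the smaller peak table neither the difference from NKT (1.22) nor that from T cells (0.79) was called.

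**Figure D2:**
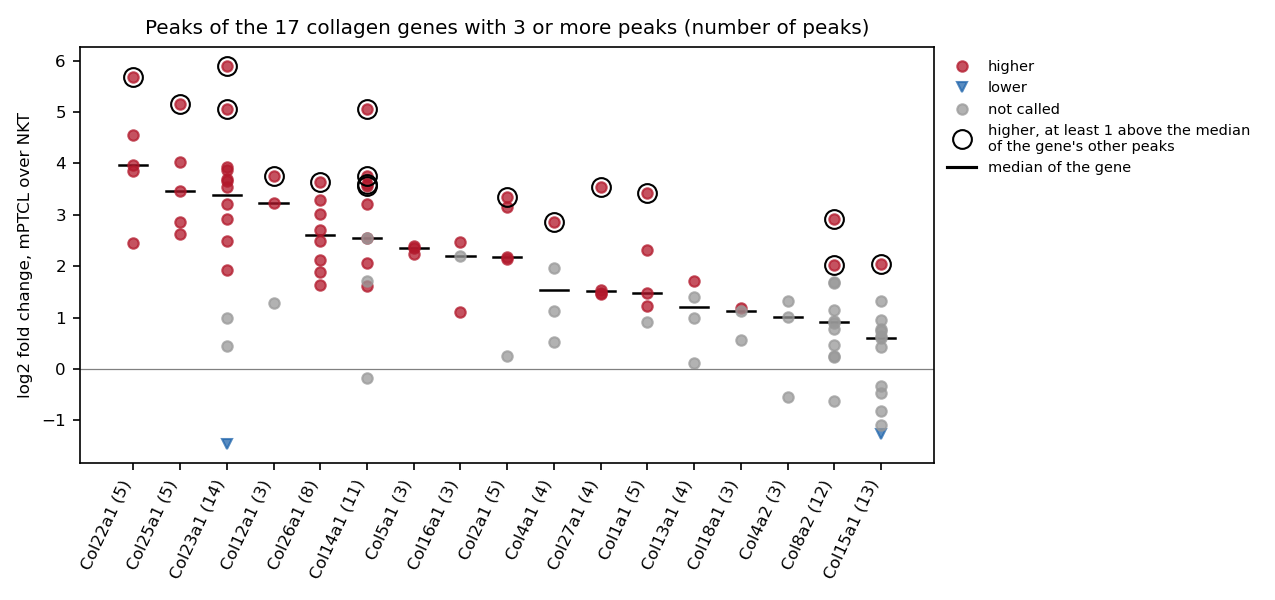
Log2 fold change of mPTCL over NKT cells for each peak of the 17 collagen genes with at least 3 peaks, by gene with the number of peaks, with the gene's median as a line and rings around higher peaks at least 1 above the median of the other peaks. All peaks of Col26a1 lie between 1.64 and 3.64, whereas Col23a1 and Col15a1 hold peaks on both sides of 0; peaks with 1 to 3 NKT counts stand at their fitted value, whose size is uncertain.

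Per library, the peaks of a gene did not always move as one. In Col26a1 every peak had signal in every lymphoma, while in Col22a1 mPTCL 1, 3, 4 and 7 were the 4 lowest lymphomas at each of the 5 peaks. The strongest Col15a1 peak in the lymphomas, intronic at chr4:47250955-47251455 and picked after its values were seen, had 33.2 to 64.4 CPM in mPTCL 1 to 7 but 5.58 CPM in mPTCL 8 and 5.61 CPM in mPTCL 9. It had 22.4, 29.2 and 23.7 CPM in NKT cells, 28.8, 39.8 and 50.0 CPM in T cells and 58.1, 12.6 and 3.17 CPM in NK cells. Both low lymphomas were thus below every NKT and T library, the 7 others above every NKT library, and the difference from NKT cells over all 9 was 0.60, not called.

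**Figure D3:**
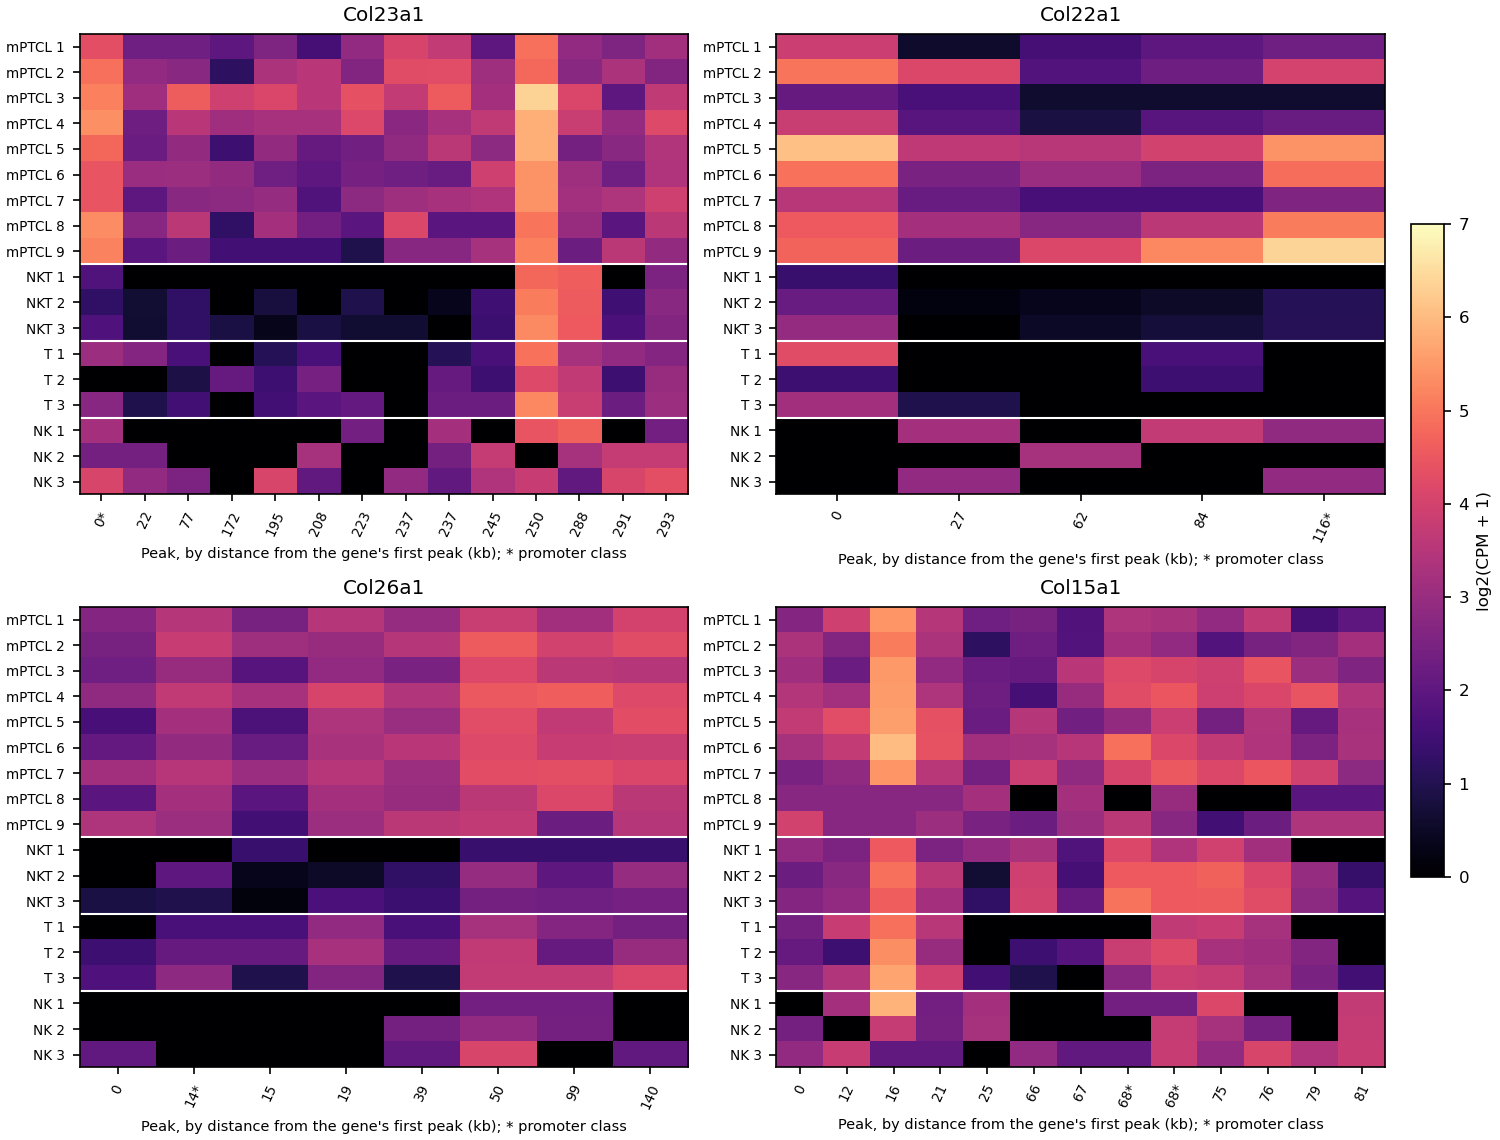
Level, as log2(CPM + 1) by the colour scale, of each peak (columns, by distance in kb from the first peak of the gene, with an asterisk at peaks annotated as promoter) in each of the 18 libraries (rows, mPTCL first) for Col23a1, Col22a1, Col26a1 and Col15a1. Col26a1 is bright over the whole gene in every lymphoma, the bright Col22a1 rows are those of mPTCL 2, 5, 6, 8 and 9, and the Col15a1 column at 16 kb is dark in mPTCL 8 and 9 (5.58 and 5.61 CPM).

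Whether gains were sites of their own or a weak signal over whole genes was described with 3 yardsticks. The first was the gene itself, in the 17 collagen genes with at least 3 peaks, which hold 105 peaks. Of 62 peaks gained over NKT cells in these genes, 45 were within 1 log2 unit of the median of the other peaks of the gene or below it, and 17 stood at least 1 unit above it. By this yardstick the gain was shared over the gene in most cases. A margin of 0.5 left 29 peaks standing apart and a margin of 2 left 5. Among the 10 gained peaks of the stronger 50%, 1 stood apart, the Col8a2 promoter. This yardstick is not matched for level, and weak peaks had larger differences from NKT cells everywhere, as given below. The collagen peaks of the stronger 50% had a median excess over their gene of -0.75. It therefore cannot tell whether strong gains are sites of their own. Against T cells 14 of 21 gained peaks stood apart, and against NK cells 9 of 11. Only called peaks were scored, and the median collagen peak held 4 counts per library in T and 2 in NK cells. At such counts mainly large differences are called, so a called peak tends to stand apart. These 2 counts therefore cannot tell whether the gains are sites of their own. Without T 1 the number apart against T cells was 6, where 7 collagen peaks in all were called higher. Without T 3 it was 8, where 9 were called. Against NK cells it was 3 without NK 2, where 4 were called. The number apart thus fell along with the number of calls. Fitted differences were used also where the normal group had 0 counts, as at 4 collagen peaks for T and 9 for NK cells. Such peaks of Col8a2, Col22a1 and Col23a1 (T cells) and of Col5a1, Col14a1, Col22a1 and Col26a1 (NK cells) count as apart. The size of their differences is uncertain, and the count was not repeated with the lower bounds.

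The second yardstick was the level of a peak, since weak peaks were higher in the lymphomas everywhere. In the weakest of 10 equal classes of all peaks, 61.0% were called higher than in NKT cells, with a median log2 difference of 2.62, and in the strongest class the median was -0.73. The 34 collagen peaks of the weakest class had a median of 3.22, and 23 of them were called. Over all 124 collagen peaks, the difference from NKT cells exceeded the median of the own class by a median of 0.66. It was at least 1 unit above the class median in 46 peaks and at least 1 below in 12. The excess over the class had a median of 0.50 against T and 0.32 against NK cells. Of the 27 collagen peaks in the stronger 50%, 14 exceeded their class by at least 1, and their median difference from NKT cells was 0.60, against -0.43 for all peaks of that range.

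**Figure D4:**
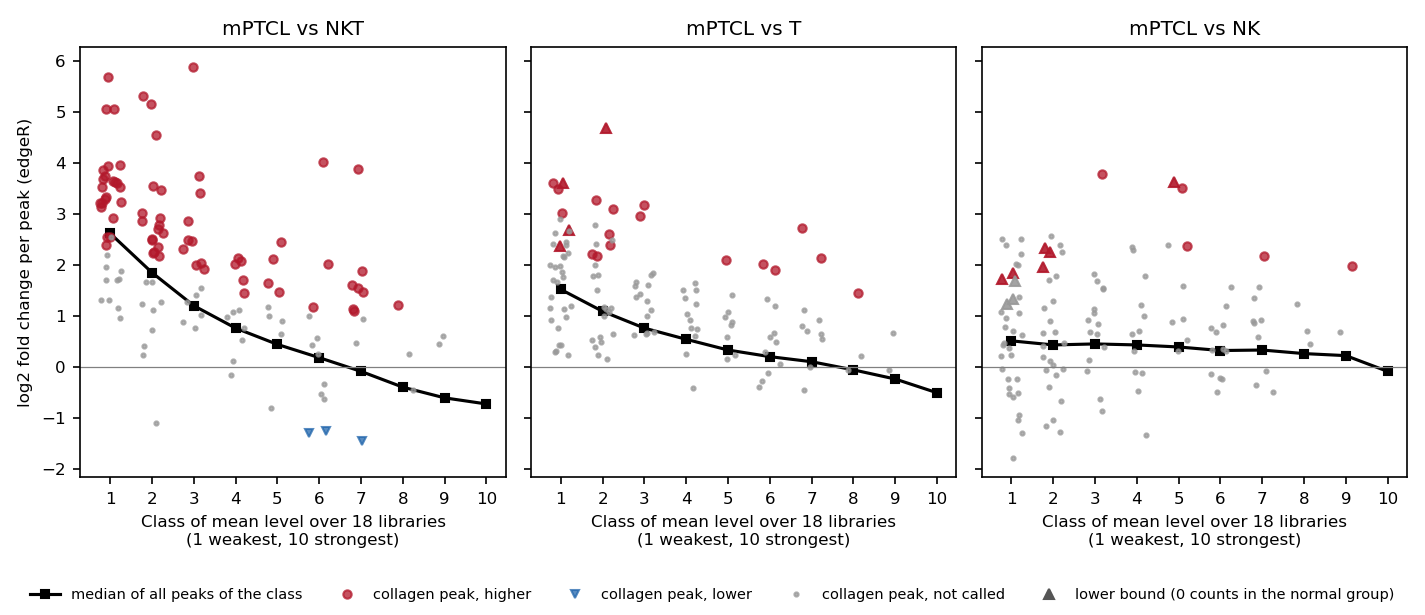
Log2 fold change of mPTCL over NKT, T and NK cells for each collagen peak, against its class of mean level over the 18 libraries (1 weakest, 10 strongest), with the median of all peaks of the class as a line and triangles for lower bounds where the normal group had 0 counts. Against NKT cells the line falls from 2.62 in the weakest class to -0.73 in the strongest, and more collagen peaks lie above it than below.

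The third yardstick was the surroundings, the 5 nearest peaks on either side that are not annotated to the gene. The difference from NKT cells exceeded the median of these neighbours by at least 1 unit in 72 of 124 collagen peaks and was at least 1 unit below it in 4, with a median excess of 1.17. Of the 62 gained peaks in genes with at least 3 peaks, 41 exceeded their neighbours in this way. The neighbours were not matched for level either. In the 97 weaker collagen peaks the median excess was 1.38, with 65 at least 1 unit above their neighbours and 1 below. In the 27 stronger collagen peaks the median excess was 0.23, with 7 above and 3 below. This yardstick therefore cannot tell a gain local to collagen genes from the rise of weak peaks everywhere. By structural group the median excess ran from 0.66 in short-chain and 0.79 in fibrillar collagens to 2.68 in transmembrane collagens. The neighbours of Col4a1 had a median of -1.20, and those of Col22a1, as given above, one of 3.34.

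Of the 27 collagen peaks of the stronger 50%, 4 were called higher against at least 2 normal groups. They are the promoter peaks of Col23a1 and Col25a1 described above, the Col8a2 promoter and an intronic Col16a1 peak. The share of all stronger peaks that met this rule is not given, so the count is a description only. At the Col8a2 promoter, chr4:126286659-126287159, lymphomas 1 to 9 had 29.4, 23.0, 9.55, 12.9, 18.9, 16.8, 11.1, 19.5 and 23.4 CPM. NKT cells had 4.0, 3.03 and 5.89 CPM, T cells 4.26, 7.79 and 1.87 CPM, and NK cells 0, 4.22 and 25.4 CPM. Every lymphoma was above every NKT and T library, but NK 3 exceeded 8 of the 9. The log2 difference was 2.03 ± 0.55 from NKT and 2.03 ± 0.61 from T cells, both called, and 0.76 from NK cells, not called. The call against T cells was lost without T 1 (2.14) or T 3 (1.53). Col16a1 encodes a FACIT collagen of connective tissue. Its peak at chr4:130087177-130087677 had 11.2 to 25.3 CPM in the lymphomas, 3.2, 9.84 and 9.18 CPM in NKT, 10.7, 5.19 and 10.7 CPM in T and 4.15, 0 and 6.35 CPM in NK cells, and no lymphoma overlapped a normal library. The log2 difference was 1.1 ± 0.44 from NKT and 2.18 ± 0.64 from NK cells, both called, and 0.92 from T cells, not called. The call against NKT cells was lost without any 1 NKT library, T 3 or mPTCL 4 and with scaling within each chromosome (0.92), and that against NK cells without NK 2 (1.65).

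**Figure D5:**
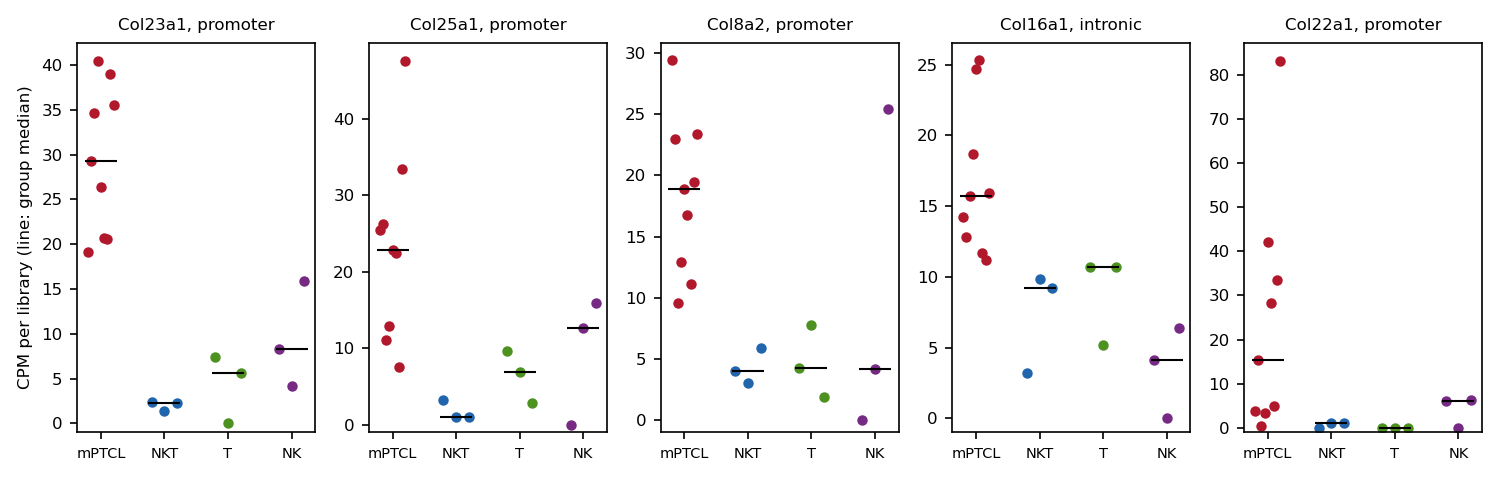
CPM per library (y) by group (x) at 5 collagen peaks, with the group median as a line; the first 4 are the peaks of the stronger 50% that were higher than in at least 2 normal groups, and the last is the Col22a1 peak annotated as promoter. At the Col23a1 promoter and the Col16a1 intron all 9 lymphomas lie above all 9 normal libraries, at the Col8a2 promoter NK 3 (25.4 CPM) lies among the lymphomas, and at Col22a1 the lymphomas spread from 0.531 to 83.1 CPM.

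With a scaling that follows the level of the peaks, run with another test, most single calls against NKT cells were lost. The scaling and the test changed together, so their parts in the loss cannot be told apart. After cyclic loess, which sets the average of weak and of strong peaks equal across libraries, and limma on log2 CPM, 7 collagen peaks were higher than in NKT cells (4.68% of all peaks) and 1 was lower (6.45%). All 7 had also been called by edgeR: Col23a1 at 51289775 (log2 3.55) and 51527212 (2.31), Col25a1 at 130180412 (3.14), Col26a1 at 136790866 (2.12), Col1a1 at 94937113 (1.86), Col14a1 at 55520780 (1.71) and Col9a2 at 121041008 (1.28). The lower one was intronic in Col15a1, at 47300729 (-2.80). Against T cells 9 were higher (5.15%) and 0 lower (6.73%), and against NK cells 13 were higher (10.5%) and 6 lower (8.47%). The median difference of the collagen peaks was 0.52 against NKT, 0.52 against T and 0.54 against NK cells. Of the genes, 14 were higher than in NKT (13.6% of all genes), 10 than in T (11.9%) and 8 than in NK cells (16.5%), of which 14, 10 and 5 had been called by edgeR. Col22a1 (3.19), Col25a1 (3.60), Col26a1 (2.91) and Col14a1 (2.47) had the largest differences from NKT cells. The Col8a2 promoter was not called against NKT cells under this scaling (1.82), nor was the Col16a1 intron (1.21), and among genes Col4a1 (0.91), Col5a1 (1.58) and Col6a2 (0.99) were not. The Col23a1 intron at 51577604 had -1.43 and was not called either. Against T cells the promoters of Col25a1 (1.62) and Col8a2 (1.81) and the genes Col4a2 (0.89), Col5a1 (0.94) and Col18a1 (0.57) lost their calls, as did the Col22a1 peaks at 71944371 (1.1) and 71979754 (0.91) and the Col8a2 intron at 126303063 (0.57).

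The normal cells were also compared with each other. NKT cells had 1 collagen peak higher than T cells (3.48% of all peaks) and 3 lower (1.75%). NK cells had 4 higher (2.02%) and 1 lower (2.77%) than T cells, and 19 higher (6.81%) and 2 lower (10.3%) than NKT cells. Between NK and NKT cells the median log2 difference of the collagen peaks was 0.80, against -0.17 over all peaks. These calls depended on single libraries: without T 2 the count between NKT and T cells was 0, and without T 1 or NK 3 the count between NK and T cells was 0. Without NKT 2 the 21 calls between NK and NKT cells were 6, without NK 3 they were 9 and without NKT 3 they were 12.

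The only collagen peak called higher in NKT than in T cells was in Col15a1. This intronic peak at chr4:47300729-47301229 had 8.79, 14.2 and 14.9 CPM in NKT cells and 0, 1.73 and 0.935 CPM in T cells (log2 3.71 ± 1.01, adjusted p = 0.0226, edgeR), with no overlap. It was not called without NKT 2, NKT 3 or any 1 T library. The Col15a1 promoter peak at chr4:47302448-47302948 had 4.15, 0 and 3.17 CPM in NK cells and 16.8, 22.6 and 30.1 CPM in NKT cells (log2 -3.2 ± 0.96, adjusted p = 0.021, edgeR). That call was lost without NKT 3 (-2.96), without NK 2 (-2.69) or without NK 3 (-3.32), and also with RLE scaling (-2.69), library totals (-2.78), a mean count of at least 20 (-2.68) and a replicate block over the 9 normal libraries (-2.74). The flanking peak at chr4:47315630-47316130 had 12.4, 12.6 and 12.7 CPM in NK cells and 0, 0 and 1.87 CPM in T cells (3.82 ± 0.99, adjusted p = 0.0216, edgeR), a call lost without T 1, T 2 or NK 3.

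Other differences between normal cells were at weak peaks. NK cells were higher than T cells at an intronic Col8a2 peak (chr4:126303719-126304219), with 8.29, 4.22 and 22.2 CPM in NK cells and 0, 1.73 and 0 in T cells (adjusted p = 0.0205, edgeR). They were also higher at a Col13a1 peak (chr10:61906174-61906674), with 16.6, 12.6 and 17.4 CPM in NK cells and 4.26, 0 and 1.87 CPM in T cells (2.98 ± 0.89, adjusted p = 0.0455). Col13a1 encodes a transmembrane collagen of the neuromuscular junction. A Col2a1 peak at 98001147 was the last of the 4 (adjusted p = 0.0495, edgeR). All 3 calls were lost without NK 3, without T 1 or without T 3. The Col26a1 intron at 136759937 had 0 counts in NK cells and 6.39, 8.65 and 5.14 CPM in T cells (adjusted p = 0.0348, edgeR). NKT cells were also lower there than T cells (-2.53 ± 0.75, adjusted p = 0.0413), and lower at the Col25a1 intron at 130218027 and the Col23a1 intron at 51527212, where they held 2 counts each. Each of these calls was lost without at least 1 library. Between NK and NKT cells the largest differences were at weak peaks where NKT cells had 1 to 6 counts in all, in Col22a1 (71944371), Col11a2, Col25a1 (130218027), Col23a1 (51527212) and Col2a1 (97986524). At the Col2a1 exon NK cells had 12.4, 8.43 and 6.35 CPM, and NKT cells 0, 0.303 and 0.548 CPM (4.45 ± 1.21, adjusted p = 0.0117, edgeR), not called without NKT 2 (4.30). The strong Col23a1 intron at 51539459 was lower in NK cells, with 20.7, 0 and 12.7 CPM, than in NKT cells, with 26.4, 33.5 and 38.0 CPM (-1.55 ± 0.54, adjusted p = 0.043), a call lost when any 1 of 14 of the 18 libraries was left out and under 8 of the other alternatives.

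Genes that make, bind or accompany collagen are given beside the shares of all genes that were called, 25.5% higher and 20.2% lower against NKT, 16.2% and 14.7% against T, and 11.2% and 10.3% against NK cells. Of 33 enzymes and chaperones of collagen assembly, 24 had a peak, of which 11 were higher than in NKT cells and 5 lower (median log2 0.45). Against T cells 7 were higher and 5 lower, and against NK cells 2 higher and 4 lower. The collagen chaperone gene Serpinh1 and the crosslinking enzymes Lox, Loxl1, Loxl2 and Loxl4 had no annotated peak. Of 12 listed symbols of collagen receptors 9 had a peak. Gpr56, counted without a peak, is an older symbol of the listed Adgrg1, which had one. Of the 9, 4 were higher than in NKT cells and 0 lower, 4 and 0 against T, and 2 and 0 against NK cells. Of 31 other matrix genes 21 had a peak, of which 13 were higher than in NKT cells and 0 lower (median 1.40), 7 and 1 against T, and 2 and 0 against NK cells. Over all genes the median was 0.06 against NKT, 0.12 against T and 0.13 against NK cells.

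Markers of liver cells other than lymphocytes are given beside the collagen gain and can be read against the shares of all genes just given. Their part in the gain was not tested. Of 15 stellate cell and fibroblast markers without collagens, 11 had a peak, of which 5 were called higher against NKT cells and 1 was called lower, 6 and 0 against T, and 2 and 1 against NK cells. Their summed level was 257 to 373 CPM in the lymphomas, 140 to 163 in NKT, 189 to 212 in T and 209 to 323 in NK cells. The defining genes Des, Rgs5, Dcn and Lum had no annotated peak. Of 10 endothelial markers 7 had a peak, with 4 higher and 0 lower against NKT, 1 and 0 against T, and 0 and 2 against NK cells, and 135 to 235 CPM in the lymphomas, 144 to 153 in NKT, 155 to 217 in T and 151 to 330 in NK cells. Of 10 hepatocyte markers 4 had a peak, with 4 higher against NKT, 2 against T and 0 against NK cells and 0 lower, and 40.4 to 98.9 CPM in the lymphomas, 5.28 to 19.1 in NKT, 15.4 to 30.4 in T and 40.9 to 80.6 in NK cells, and Alb, Apoa1 and Ttr had no annotated peak. Counts of higher markers against NKT, T and NK cells were 3, 1 and 0 of the 3 cholangiocyte markers with a peak (5 listed) and 2, 2 and 0 of the 4 myeloid and Kupffer-cell markers (10 listed). They were 3, 3 and 0 of the 4 B-cell markers (7 listed) and 2, 0 and 0 of the 5 erythroid markers (6 listed), and none of these markers was lower. T-cell markers, all 8 with a peak, summed to 329 to 547 CPM in the lymphomas, 863 to 934 in NKT, 527 to 672 in T and 280 to 351 in NK cells. NK-cell markers (4 of 5 with a peak) summed to 84.2 to 152 CPM in the lymphomas, 27.1 to 31.6 in NKT, 27.1 to 49.2 in T and 126 to 149 in NK cells.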

How the data were processed

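The authors deposited unnormalized counts of reads in each peak for 18 mouse ATAC-seq libraries. Per the submitters' processing notes, they used MACS2 2.1.2, bedtools, edgeR 3.24.3 and the mm10 build. Not given in the sources used here are the aligner, how duplicates and the Tn5 offset were treated, and how peaks were chosen. Shares of called peaks therefore refer to this peak set. The authors also deposited log2 CPM values, which equal log2 CPM recomputed from the counts to within 5e-04. Peak classes and symbols are the authors', and positions are printed as deposited, where the first base may be 0 or 1.

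The table of 61224 peaks (500 bp) was analysed, and a table of 27727 peaks served as an alternative. The test was that of edgeR 4.0.16 (R 4.3.3) on counts (TMM, filterByExpr by group, glmQLFit and glmQLFTest in 1 fit of 18 libraries and 4 groups), with Benjamini-Hochberg adjustment over all 61220 peaks kept and a threshold of 0.05. Gene values are counts summed over the peaks of a symbol and fitted separately over 20326 genes. The biological coefficient of variation was 0.431 for peaks and 0.297 for genes. A group with 0 counts was set to 3 counts over the group, and ratios against 1 to 3 counts have exact binomial 95% intervals, which cover counting error only. The level classes, neighbours and margins are described with the results. Alternatives were RLE scaling, library totals, TMM within each chromosome, a mean count of at least 20, DESeq2 1.42.0, cyclic loess with limma 3.58.1 (prior count 2), the smaller table, promoter peaks only, only the groups compared, a replicate block and leaving out each library. The fit was tested on simulated data. No library was counted as a duplicate: the chi-square of the closest pairs within groups, divided by its degrees of freedom, was 2.18 to 3.45.

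Members and gene lists were chosen with earlier results of these data known. Named with values were, in each lymphoma comparison, the 5 called peaks with the largest difference either way, genes with at least 6 peaks, 11 collagens of scar, vessel wall and basement membrane, called peaks between normal groups (at most 5 each way), and stronger peaks higher against at least 2 groups. Lymphoma numbers follow accession order and carry no meaning. Promoter sequences are from RefSeq GRCm38.p6.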

Additional observations from a re-analysis of the deposited data

Results flagged for a closer look

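Of 58 values tested over the 9 lymphomas, 1 had a single library far from the others. At the Col15a1 promoter peak at chr4:47302448-47302948, mPTCL 8 had 0.0 CPM, and the next lowest lymphoma had 6.59 CPM. The gap was 0.618 of the whole range, above the critical value of 0.493 for 9 libraries. Chance flags about 1 in 20 such groups. mPTCL 8 was also the shallowest lymphoma, with 670358 counts in peaks, where 1 count is worth 1.39 CPM.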

How the results depend on the processing

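Every alternative gave more collagen peaks higher than lower in the lymphomas against each normal group, but the counts moved. With a mean count of at least 20 the higher peaks numbered 21 against NKT, 11 against T and 6 against NK cells of the 38 collagen peaks left (17.9%, 11.1% and 8.12% of all peaks), and 2, 3 and 2 of them stood apart from their gene. With cyclic loess they numbered 7, 9 and 13 of 124 against NKT, T and NK cells (4.68%, 5.15% and 10.5% of all peaks). The counts against NKT and NK cells were thus near the share of all peaks. In this setting 1 peak was lower than in NKT and 6 were lower than in NK cells (6.45% and 8.47%). There were 14, 10 and 8 genes higher and 1 gene lower than in NK cells, and 4 and 5 peaks stood apart against NKT and T cells. The smaller peak table, with 15 collagen peaks, gave 8, 1 and 1 higher peaks (13.9%, 8.16% and 9.64% of all), 0 lower than NKT cells, and 5, 1 and 2 higher genes. DESeq2 gave 55 and RLE scaling 35 peaks higher than T cells, where the shares of all peaks also grew, to 20.9% and 12.8%. RLE scaling set the median of all peaks against NKT cells at 0.74, against 0.27 with TMM. Peaks lower than in NKT cells numbered 3 in the main fit and 1 with RLE scaling, library totals, a mean count of 20, DESeq2 or cyclic loess. With cyclic loess the 1 lower peak was not among the 3 of the main fit. Promoter peaks alone gave 11 of 14 genes higher than NKT (19.7% of all genes) and 7 than T cells (13.7%), and TMM within each chromosome 2 genes higher than NK cells (7.85%). With a margin of 0.5, 29 peaks stood apart from their gene against NKT cells, and with 2 it was 5 there and 7 against T cells.

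Between normal groups, called peaks numbered 4 (NKT and T), 5 (NK and T) and 21 (NK and NKT). They were 1, 0 and 3 of 38 with a mean count of 20 (5.19%, 5.10% and 7.92% of all peaks), 11, 11 and 46 with DESeq2 (9.10%, 7.16% and 21.6%), and 1, 18 and 9 with cyclic loess (2.08%, 10.1% and 10.5%). With only the groups compared they were 8 of 29, 2 of 8 and 3 of 15 (25.8%, 8.12% and 14.4%), and the smaller table had none among its 15. With the 9 normal libraries alone, an alternative chosen after seeing the data, 31 collagen peaks were left. Of these 2, 3 and 5 were called (15.3%, 10.2% and 17.5% of all peaks). With a replicate block added it was 1, 3 and 3 of the 31 (10.3%, 6.48% and 12.6%). The replicate numbers showed no sign of pairing. Deviations from the group mean correlated by -0.0369 to 0.0465 between same-numbered and by -0.0423 to 0.0623 between differently numbered libraries. With 3 libraries per group, some of them shallow, this cannot exclude that samples were paired. No paired analysis was possible for the lymphomas because their titles carry no replicate numbers.

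Leaving out 1 library at a time gave 41 to 82 higher and 1 to 3 lower peaks against NKT, 7 to 29 and 0 to 0 against T, and 4 to 15 and 0 to 1 against NK cells. Higher genes were 20 to 26, 10 to 18 and 3 to 6, with 0 to 1 lower than NK cells. Peaks apart were 15 to 19, 6 to 16 and 3 to 13. Called peaks between normal groups were 0 to 4, 0 to 7 and 6 to 26. Median peak differences were 1.77 to 2.13, 1.18 to 1.38 and 0.54 to 1.27. Shares of all peaks or genes called with 1 library left out are not given here or above. A change particular to collagen and a general change in calls therefore cannot be told apart.

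Signs turned for Col15a1 against NKT cells with promoter peaks alone (-0.11), Col18a1 against NK cells with cyclic loess (-0.03), Col4a1 against NK cells without NK 3 (0.10), and Col4a2 with cyclic loess (-0.08 against NKT, -0.23 against NK cells). Col4a2 against NK cells also turned without mPTCL 5 (-0.14), mPTCL 7 (-0.0), NK 1 (-0.2) or NK 3 (-0.03). Leaving out 1 library gave -1.06 to 0.10 for Col4a1 and -0.2 to 0.57 for Col4a2 against NK cells. None of these was called, and the cause of the shifts was not tested. A median collagen peak held 18 counts in a lymphoma and 2 in an NK library, and the part of depth in the number of calls was not tested.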
